A study of Gallus gallus with 24 samples.

Results

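The unannotated loci were the 983 rows of the deposited expression table whose identifier does not begin with ENSGALG, out of 25339 rows, the rest being Ensembl genes. The files give each of them a running number in place of a gene identifier, with a chromosome, a start, an end, a strand and a length. All 983 also stand in the authors' separate list of loci found beyond the annotation, where 0 of the position, strand and length entries differed. Each locus is named here by its position, with the end at the first mention only. The Ensembl rows set beside them were 13855 rows with a gene symbol and 10501 rows without one. Coordinates are those of the files, for which the submitters' notes name the chicken build GRCg6a.

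The RNA came from the ileum of 24 Arbor Acres broilers aged 14 d, 6 birds in each of 4 groups. SPM birds ate a basal diet with 300 mg/kg magnolol and were challenged with Salmonella pullorum. SPH birds had 300 mg/kg honokiol in the diet and the same challenge, SP birds had the challenge on the basal diet alone, and CTL birds had the basal diet and no challenge. The challenge was 0.5 mL of bacteria by mouth at 5 d of age, and CTL birds received the same volume of buffer. CTL cages were reared apart from the challenged cages, so the challenge and the place of rearing cannot be told apart. By the summed FPKM of the 149 rows on chromosome W, of which 25 are unannotated loci, 16 birds were female (512 to 633 FPKM) and 8 were male (1.83 to 3.26 FPKM). There were 4 females of 6 birds in SPM, 3 in SPH, 3 in SP and 6 in CTL. Every CTL bird was therefore female, and the Ensembl rows of W alone gave each bird the same sex. Enterocyte markers summed to 4667 to 12831 FPKM per bird, whereas photoreceptor markers, checked because the submitters' extraction text speaks of retinas, summed to 1.54 to 3.89 FPKM.

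An unannotated locus is reported when sequencing reads pile up, with or without splice junctions, at a place where the annotation in use holds no gene. Such loci include long non-coding RNAs, antisense and divergent transcripts made near the promoters or ends of known genes, unannotated extensions of known genes, and protein-coding genes missing from the annotation. They are usually found in larger numbers where an assembly is incomplete, which in chicken means the smallest microchromosomes, the W chromosome and scaffolds that have no chromosome assigned. In birds the female is the ZW sex and the male the ZZ sex, and the male excess of Z-linked RNA is only partly evened out. The position of a locus is the only identity that the files give, and no function is assigned to any of them here.

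The unannotated loci lay on 54 chromosomes or scaffolds, 498 on the plus strand and 485 on the minus strand. They made up 3.88% of all rows, but their share was uneven along the genome. On chromosomes 1 to 5 they were 2.83% of the rows (318 loci), on 6 to 10 they were 3.01% (113 loci) and on 11 to 28 they were 3.80% (274 loci). Their share was higher on the microchromosomes 30 to 33, at 11.5% (130 loci), and among unplaced scaffolds, at 16.3% (87 loci). Chromosome 31 alone held 60 of them among 398 rows. The classes were uneven within. Of 11 to 28, chromosome 16 had 12.1% (20 of 165 rows) and chromosome 25 had 8.44% (33 of 391 rows), against 7.54% on chromosome 33. On the W chromosome the share was 16.8% (25 of 149 rows), and on the Z chromosome 2.73% (35 of 1280 rows). A single unannotated locus was listed on the mitochondrial genome. These shares are descriptions of the table and were not tested.

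The deposited length of an unannotated locus, which is the length over which FPKM was computed, had a median of 1231 bases, against 2232 bases for Ensembl rows with a symbol and 1505 bases for those without. It ran from 202 bases (chr2:108739478-108740671) to 31770 bases (chr3:50317300-50377240). The genomic span from start to end had a median of 2474 bases in unannotated loci and reached 364 kb, against medians of 11989 bases for rows with a symbol and 7068 bases for rows without. Length equalled span, as it does for a single block without introns, in 354 unannotated loci (36.0%), against 11.9% and 12.0% of the Ensembl rows with and without a symbol. The authors' field headed tf_family holds labels that read as names of protein domains. Such a label was carried by 75 unannotated loci (7.63%), against 44.8% of rows with a symbol and 18.1% of rows without. There were 42 different labels among the 75, and the most frequent was RVT_1, the label of a reverse transcriptase domain, with 14 loci. A label is the authors' annotation of a locus and says nothing of its expression.

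In the ileum, the median level of all unannotated loci lay between those of the Ensembl rows with and without a symbol. The mean FPKM over the 24 birds, a level per length, had a median of 1.06 in unannotated loci (quartiles 0.364 and 2.86), against 7.96 in rows with a symbol and 0.0374 in rows without. A mean of at least 10 FPKM was reached by 112 unannotated loci (11.4%), against 44.5% and 9.36%, and a mean of at least 100 FPKM by 8 unannotated loci. At least 1 read in every bird was present at 615 unannotated loci (62.6%), against 82.5% and 32.5%. A mean of at least 0.1 FPKM, the minimum for testing, was reached by 834 of the 983 loci (84.8%), against 87.6% and 41.2%. Of the 149 loci that did not pass, 68 had reads and 81 had none in any bird. The loci without a read were 8.24% of the unannotated loci, against 4.85% and 22.5% of the Ensembl rows with and without a symbol. Unannotated loci are usually reported where reads pile up, whereas Ensembl rows are listed with or without reads. How the loci were chosen here is not stated in the sources used. The shares and medians above therefore cannot be taken to compare like with like. Among rows that passed the minimum, the median of the mean FPKM was 1.35 in unannotated loci. It was 10.3 in rows with a symbol and 1.63 in rows without, so the unannotated loci were there the lowest. The loci also varied more between birds. Among rows of at least 1 FPKM, the SD of log2(FPKM + 0.1) over the birds had a median of 0.44 in the 509 unannotated loci, against 0.23 and 0.33 in rows with and without a symbol. These rows were not matched for level or read number, and rows on W were included. Tested unannotated loci had a median of 35.2 reads per bird, against 429 and 42 in the tested Ensembl rows with and without a symbol.

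**Figure D1:**
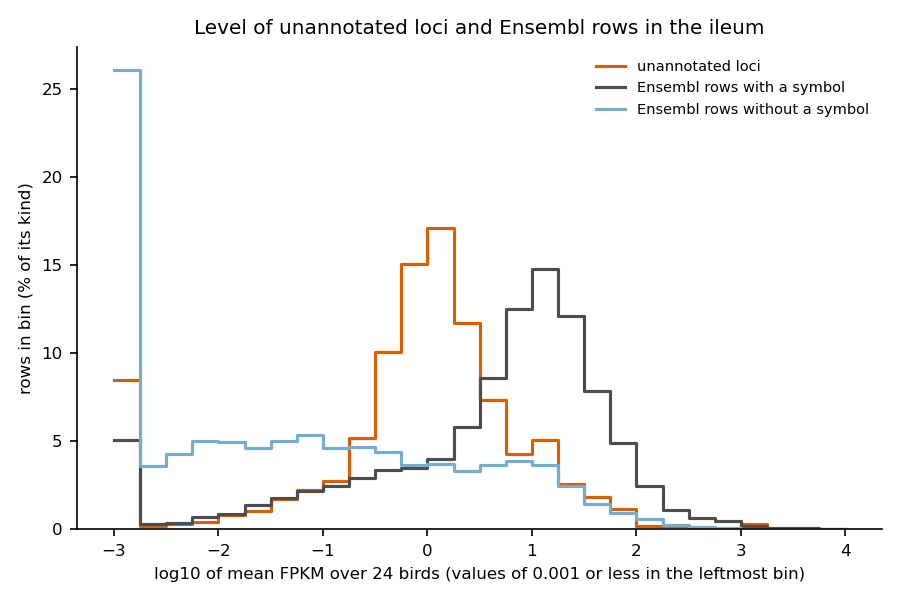
Distribution of the mean FPKM over 24 birds (x axis, log10 scale) as the percentage of rows of each kind per bin of 0.25 (y axis), for unannotated loci, Ensembl rows with a symbol and Ensembl rows without one. The unannotated loci peak near 1 FPKM, below the rows with a symbol, and most rows without a symbol lie below the unannotated loci.

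The share of each bird's reads that fell on unannotated loci was 1.49 to 2.85%, with a median of 2.04%, out of 14393822 to 19435410 reads on genes per bird. In the groups, this share had medians of 1.84% in SPM, 2.12% in SPH, 1.97% in SP and 2.17% in CTL, and the ranges of the 4 groups overlapped. The 3 loci of highest mean FPKM, chr33:6249686-6255180, chr28:1192464-1194191 and chr33:6172704-6174516, held 31.5 to 61.5% of these reads. Most of that was at the first, chr33:6249686, which had between 57914 and 235310 reads in a bird. Without these 3 loci the share was 0.862 to 1.15% per bird. Between 769 and 823 unannotated loci had reads in a bird, with 789 to 823 in females and 769 to 787 in males, the W loci included.

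The most abundant locus was chr33:6249686 (minus strand, length 5495 bases), which ranked 25 in the whole table. Its lowest, median and highest FPKM were 1078, 1213 and 2692 in SPM, 679, 1619 and 1876 in SPH, 1416, 1486 and 1934 in SP, and 1433, 1864 and 2783 in CTL. The groups overlapped widely. Its nearest row with a symbol, RF01684 on the opposite strand, began 12 bases away, and the levels of the pair had a Pearson r of 0.05 over the birds.

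The next was chr28:1192464 (plus strand), with a lowest, median and highest FPKM of 1048, 1390 and 1793 in SPM, 963, 1299 and 1595 in SPH, 785, 1091 and 1480 in SP, and 1216, 1364 and 1495 in CTL. SP birds had the lowest median, and the SP range crossed those of all other groups. The third, chr33:6172704 (minus strand), had 969, 1353 and 1668 FPKM in SPM, 772, 1146 and 1509 FPKM in SPH, 743, 992 and 1602 FPKM in SP, and 567, 870 and 1373 FPKM in CTL. Here CTL had the lowest median, again with overlap throughout. chr33:6172704 and chr33:6249686 lie on the same strand of chromosome 33, and the same symbol row is the nearest to both.

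Of the other 7 loci among the 10 most abundant, KZ626839.1:610144-610935 (mean 376 FPKM) and KZ626839.1:676903-679535 (161 FPKM) lie on the scaffold KZ626839.1, of whose 67 rows 18 are unannotated loci. KZ626839.1:610144 varied most of the 10, between 92.5 and 718 FPKM over the birds. chr5:805853-818039 (138 FPKM) and chr5:571076-571974 (79.1 FPKM) both lie on the plus strand of chromosome 5, near its start. chr18:3694176-3702597 averaged 214 FPKM, chr24:6126751-6130455 averaged 194 FPKM and KZ626834.1:158252-158941, on another scaffold, averaged 86.3 FPKM. The mitochondrial locus, on the minus strand, was chosen after its values were seen. It averaged 75.1 FPKM, with 35.3 FPKM in its lowest bird and 158 FPKM in its highest.

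Most of the loci without a read were opposite another unannotated locus. Some 204 unannotated loci overlapped another unannotated locus on the opposite strand, in 113 pairs, of which 90 were nested. In 48 pairs a single member had no read in any bird, in 16 pairs both had none, and in 49 pairs both had reads. Thus 78 of the 204 (38.2%) were listed at 0 in every bird, against 3 of the other 779 (0.385%). Of the 81 loci at 0, 65 lay wholly inside another unannotated locus. Their lengths ran from 218 to 22112 bases, and a count of 0 over the 24 birds, taken as at most 3 reads, allowed a mean of up to 0.035 FPKM in the shortest of them. Whether the libraries kept strand is not stated in the sources used here, so reads of such a pair cannot be told apart without knowing the authors' counting. A further 34 loci overlapped an unannotated locus of the same strand.

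No unannotated locus overlapped an Ensembl row with a symbol, and 7 overlapped some other Ensembl row. The gap to the nearest row with a symbol had a median of 7318 bases over the 942 loci that had one on their sequence, against 14248 bases for the Ensembl rows without a symbol, 1322 of which overlapped one. To the nearest Ensembl row of any kind the median gap was 2195 bases. In all, 249 loci (25.3%) lay under 1 kb from a row with a symbol, 175 lay at 1 to 5 kb, 292 at 5 to 50 kb and 226 over 50 kb away, and 41 had none. Loci close to a named gene had the larger medians of level and length. The median of the mean FPKM was 1.96 under 1 kb, 1.35 at 1 to 5 kb, 0.787 at 5 to 50 kb and 0.453 over 50 kb, and the median length was 1593, 1468, 1296 and 704 bases in the same order.

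Close neighbours were mostly on the other strand. Under 1 kb, 191 of the 249 loci (76.7%) lay opposite their nearest row with a symbol, against 59.3% of the 837 Ensembl rows without a symbol at that distance, and over 5 kb the share of the unannotated loci was 50.8%. The 191 comprised 110 divergent loci, which start back to back with the named gene, and 81 convergent loci, which end towards it. Convergent loci had a median gap of 70 bases and a median of the mean FPKM of 5.44. Divergent loci had a median gap of 145 bases and a median of 1.54 FPKM. Of the 58 same-strand loci under 1 kb, 37 lay upstream of the named gene and 21 downstream. At this distance, 50 of the 249 loci (20.1%) had a higher mean FPKM than the named row beside them. How the loci were assembled and how a strand was given to each, single blocks included, is not stated in the sources used here. The part of the assembly rules in the strand counts and in the lack of overlap with named rows was not tested.

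**Figure D2:**
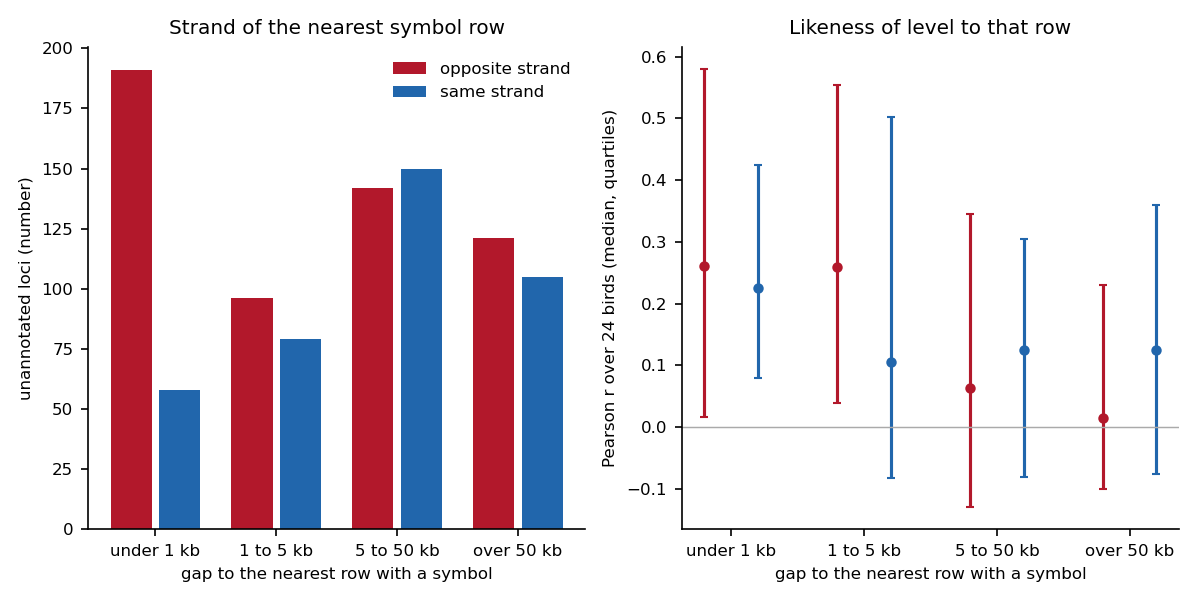
Left, the number of unannotated loci (y axis) by the gap to the nearest row with a symbol (x axis) and by strand. Right, the Pearson r of log2(FPKM + 0.1) over 24 birds between a tested locus and that row, as the median (point) with quartiles (bars). Opposite-strand loci outnumber same-strand loci under 1 kb, 191 against 58, whereas the counts at 5 to 50 kb are 142 and 150.

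Levels of a locus and its nearest named row followed each other weakly. The median Pearson r over the 24 birds was 0.26 for opposite-strand pairs under 1 kb (185 pairs), 0.23 for same-strand pairs under 1 kb (51 pairs), 0.26 and 0.11 at 1 to 5 kb, 0.06 and 0.13 at 5 to 50 kb, and 0.02 and 0.13 over 50 kb. After centring within group and sex, the medians under 1 kb were 0.25 in both orientations. Convergent pairs under 1 kb had a median r of 0.38, and divergent pairs one of 0.14. All these values share the same 24 libraries, and reads of adjoining loci were not separated by strand as far as the sources state, so they are descriptions.

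An r above 0.7 was found in 23 of the 185 opposite-strand pairs under 1 kb, of which 16 were convergent. The pairs that follow were chosen after their values were seen. chr25:386507-390260 (mean 14.6 FPKM) lay 6 bases from CGN, which encodes the tight junction protein cingulin, and had an r of 0.92 with it. chr5:15960956-15965557 (mean 67.3 FPKM) lay 7 bases from PNPLA2, which encodes a triglyceride lipase, with an r of 0.89. chr27:5555473-5557623 (mean 2.45 FPKM) lay 5 bases from COL1A1, a collagen gene, with an r of 0.84. KZ626834.1:158252, among the 10 most abundant, directly adjoined SLC25A11, a mitochondrial carrier gene, on the opposite strand, with an r of 0.71. On the same strand, chr22:571695-574214 lay 406 bases downstream of RASSF2 and had an r of 0.94 with it. The members of these pairs varied together within groups and sexes too, with centred r values of 0.95, 0.89, 0.85, 0.69 and 0.94 in the order given.

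A few loci had many reads in some birds and none in others, in more than 1 group. Outside W, 4 of the 309 unannotated loci with at least 100 reads in at least 3 birds (1.29%) had no read in at least 3 other birds, against 1 of 9563 rows with a symbol and 6 of 1844 rows without. This rule was set after values had been seen, and the shares were not tested. The 4 loci include chr3:50317300 and KZ626839.1:537223-540186, which were also among the 5 of largest spread over the birds, the others being chrW:5924281-5928031, chrW:3417693-3428241 and chrW:2380207-2384036.

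The longest locus, chr3:50317300 (minus strand), had no read in 7 birds, a median of 1 read (at most 0.0021 FPKM) in 6 birds and 2.31 to 14.2 FPKM in the remaining 11 birds, at a median of 2866 reads. A count of 0 at this length allowed at most 0.00645 FPKM in a bird. The 11 birds comprised 3 SPM, 4 SPH, 2 SP and 2 CTL birds, 6 of them female and 5 male. No bird lay between 0.0021 and 2.31 FPKM.

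KZ626839.1:537223 (minus strand) fell into 3 ranges. It had no read in 6 birds, 1.54 to 4.39 FPKM in 11 birds and 6.04 to 8.09 FPKM in 7 birds. The 6 birds without a read were 2 SPM, 1 SP and 3 CTL birds, and 5 of them were female. The 7 birds of the upper range were 2 SPM, 3 SPH, 1 SP and 1 CTL bird.

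chr2:53006129-53009465 (minus strand) had no read in 8 birds, 2 reads in 1 bird, and 1.76 to 3.58 FPKM in the other 15. The 15 comprised 2 SPM, 4 SPH, 4 SP and 5 CTL birds. chr10:629131-632229 (minus strand) was at 2.59 to 13.6 FPKM in 5 birds, at no more than 0.348 FPKM in 15 birds and without a read in 4. Its 5 birds were 1 SPM, 1 SPH, 2 SP and 1 CTL bird, and every group held birds at or near 0 there. All SPH birds had reads at KZ626839.1:537223. All SP birds had at least 1 read at chr10:629131, where a count of 0 allowed up to 0.289 FPKM in a bird. There 0 and 1 read cannot be told apart.

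**Figure D3:**
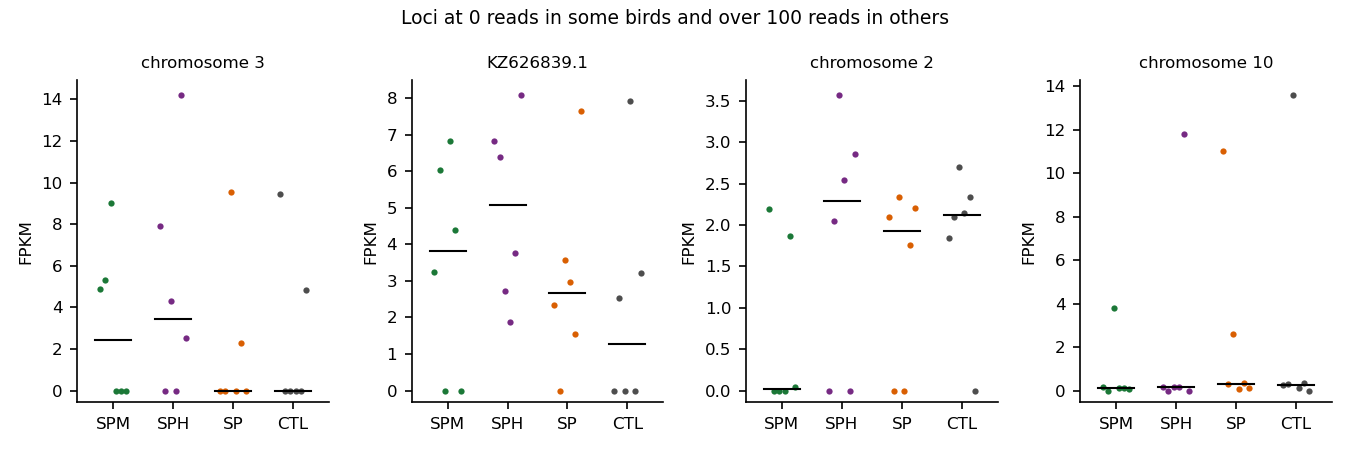
FPKM (y axis, linear from 0) of 4 loci in each of the 24 birds (points), by group (x axis), with the group median as a line. The panels stand in the order of the text (chr3:50317300, KZ626839.1:537223, chr2:53006129, chr10:629131), and birds at or near 0 occur in every group except SPH in the panel of KZ626839.1.

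The sex of the birds was compared in a limma fit with group and sex as terms, on 17288 rows with those of W included. The p values were adjusted over all of these rows. Calls were then counted over the 17215 rows outside W, of which 815 were unannotated loci. The rows of W made the sex call, and their place in the adjustment can lower adjusted p values elsewhere. Its effect on the calls was not measured. Rows with an adjusted p below 0.05 and a log2 difference (female minus male) beyond 0.5 either way are described as called. Outside W, 8 unannotated loci were called, 3 higher in females and 5 lower in females. Over all rows outside W, 0.128% were called higher in females and 1.48% lower, most of those lower on Z. All 5 unannotated loci called lower in females were on Z, and the 3 called higher were on chromosomes 1, 4 and 27. The count of 8 was 5 without the CTL birds (0.613% of the 815, against 1.55% of all rows). On leaving out 1 bird it lay between 4 without SPH replicate 1 (0.491%, against 1.55% of all rows) and 13 without SPH replicate 3 (1.60%, against 1.59% of all rows).

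On Z, 18 of the 23 tested unannotated loci had a lower mean in females, with a median log2 difference of -0.50, against 615 of 728 Ensembl rows and a median of -0.40. The calls on Z were 5 of 23 unannotated loci (21.7%) and 258 of 728 Ensembl rows (35.4%). Elsewhere outside W, 3 of 792 unannotated loci (0.379%) and 11 of 15672 Ensembl rows (0.0702%) were called. The median log2 difference was there 0.05 in unannotated loci and 0.02 in Ensembl rows.

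The loci outside W named for sex were picked for a small limma p or a call in the same birds. Their counts of birds that did not overlap stand as descriptions. The share of all rows that separate the sexes in this way is not given here. The Z locus of smallest p was chrZ:11301728-11305756 (minus strand), a single block of 4029 bases. Its lowest, median and highest FPKM were 1.94, 2.50 and 3.14 in the 16 females, against 3.30, 4.17 and 4.65 in the 8 males, so that the sexes did not overlap. The log2 difference was -0.67 ± 0.09 (SE), with a limma adjusted p (Benjamini-Hochberg) of 1.97e-05. chrZ:78951852-78954672 had 0.524, 1.36 and 1.89 FPKM in females and 1.63, 2.57 and 3.71 FPKM in males, a log2 difference of -0.87 ± 0.19 (SE). There 12 of 16 females lay below every male.

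chrZ:67318811-67319224 had a median of 6.80 FPKM in females and 11.1 FPKM in males, with 10 of 16 females below every male. chrZ:9452008-9455340, which ends 6 bases from the PDZD2 row, had a median of 1.58 FPKM in females and 2.69 FPKM in males. Their log2 differences were -0.63 ± 0.16 (SE) and -0.76 ± 0.19 (SE). chrZ:81847975-81851052, named because it was called although it lay outside the naming rule, had a median of 0.638 FPKM in females and 1.26 FPKM in males. A further Z locus, chrZ:53729820-53740642, had a limma adjusted p (Benjamini-Hochberg) of 0.00572 but a log2 difference of -0.48, short of the fold limit.

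Among unannotated loci, the largest sex difference outside the sex chromosomes was at chr1:88498661-88500688 (minus strand). Its lowest, median and highest FPKM were 0.240, 1.17 and 3.16 in females, against 0, 0.0588 and 0.436 in males, and 14 of 16 females lay above every male. The log2 difference was 2.96 ± 0.40 (SE), with a limma adjusted p (Benjamini-Hochberg) of 1.95e-05. This locus had 193 reads over all birds and overlapped an unannotated locus of the opposite strand that had 88 reads. Reads of such a pair cannot be told apart here, as said above. chr27:2194447-2195412 had medians of 2.40 FPKM in females and 0.735 FPKM in males, and chr4:18716600-18717537 0.276 FPKM in females and 0.0678 FPKM in males. In both of the last, 7 of 16 females lay above every male. The levels at chr4:18716600 were of few reads in both sexes. The next in order, KZ626835.1:1040759-1064374 and chr14:15165322-15165937, had log2 differences of 1.29 and 1.83 and limma adjusted p values (Benjamini-Hochberg) of 0.0502 and 0.0528, and were not called.

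The 8 calls differed in how they held over the settings tried. chrZ:11301728 was called in 36 of 36 settings, chr1:88498661 in 35 of 35, chrZ:78951852 in 35 of 36 and chr4:18716600 in 33 of 35. Calls were made at chrZ:67318811 in 27 of 36, at chrZ:9452008 in 23 of 36, at chr27:2194447 in 20 of 36 and at chrZ:81847975 in 12 of 35.

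**Figure D4:**
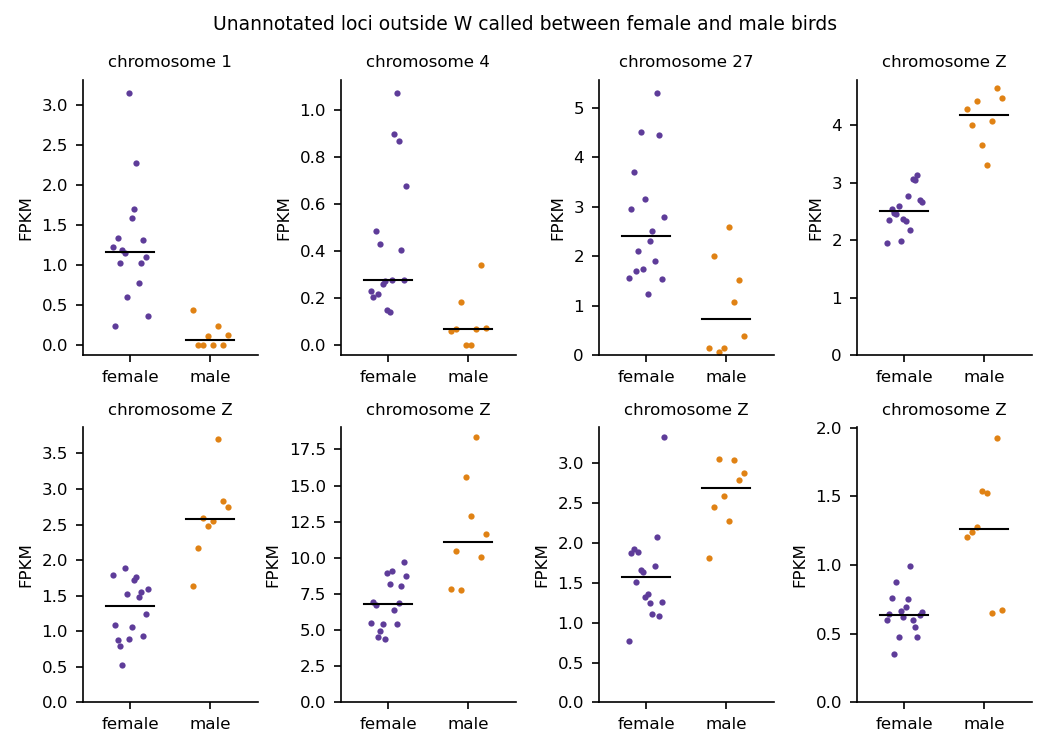
FPKM (y axis, linear from 0) of the 8 unannotated loci called between the sexes outside W, in 16 female and 8 male birds (points), with the median as a line. chr1:88498661, chr4:18716600 and chr27:2194447 are higher in females, and the 5 Z loci, in the order chrZ:11301728, chrZ:78951852, chrZ:67318811, chrZ:9452008 and chrZ:81847975, are lower in females, with no overlap of the sexes at the first of these.

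The 25 unannotated loci on W took part in the sex call, so their levels are given as a description. Reads were found at 21 of them, 16 of which had none in any male and 11 of which had some in every female. The most abundant, chrW:5924281 (minus strand), had 5.51 to 16.9 FPKM in females and no read in males. Its female mean of 12.4 FPKM was at least 1287-fold higher than the limit that 3 reads over all males would give. chrW:3417693, chrW:2380207, chrW:4107044-4107519 and chrW:5138667-5150674 had female means of 4.73, 3.02, 1.82 and 1.27 FPKM and no read in males either. Against the same limit, these were at least 1417-, 83.7-, 27.9- and 652-fold higher in females.

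By contrast, 4 loci listed on W had male means above 10% of the female mean. The best covered was chrW:5507829-5543481 (plus strand), with a median of 0.387 FPKM in females and 0.358 FPKM in males and reads in all 24 birds. Its opposite-strand partner over nearly the same interval, chrW:5507830-5543475, had no read in any bird. chrW:6130386-6130965, chrW:4610987-4611429 and chrW:2022815-2023767, named after their values were seen, had male means at 98.4%, 79.5% and 80.2% of the female means, on 16 to 32 male reads each. The origin of these reads in birds without a W was not tested.

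The groups were compared on log2(FPKM + 0.1) in 1 limma fit of all birds over 17288 rows, of which 834 were unannotated loci. With the same limits on the adjusted p and the fold change, limma called 0 unannotated loci in each of the 6 comparisons. The share of all rows called was 0% in each. The paper, with DESeq2 at these same limits, reports differentially expressed genes in SP vs CTL, SPH vs SP and SPM vs SP. The 0 here is that of limma and does not stand for the paper's test. The source of this difference was not tested. limma-voom on the reads recovered from the FPKM values called 0 unannotated loci as well. In SPM vs SP, 4 (0.480%) were called in female birds only, against 0.7% of all rows, and 5 (0.60%) without SP replicate 2, against 0.839% of all rows. The counts that follow use the unadjusted p, below 0.05 and beyond the fold limit, and stand as a description beside the share of all rows. Unannotated loci also had the larger spread between birds given above, and its part in these counts was not tested.

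In SPM vs SP, the comparison of magnolol-fed with basal-fed challenged birds, 49 unannotated loci (5.88%) were higher and 15 (1.80%) lower at an unadjusted p, against 2.54% of all rows higher and 3.2% lower. In SPH vs SP, the comparison for honokiol, 32 (3.84%) were higher and 19 (2.28%) lower, against 1.5% and 2.55% of all rows. In SP vs CTL, the comparison for the challenge, 6 (0.719%) were higher and 31 (3.72%) lower, against 1.03% and 1.55%. These comparisons share the SP birds.

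The other comparisons had no SP birds. In SPM vs SPH, 19 of the 834 loci tested (2.28%) were higher and 13 (1.56%) lower, against 0.943% and 0.925% of all rows. In SPH vs CTL, 27 (3.24%) were higher and 15 (1.80%) lower, against 1.03% and 0.821%. In SPM vs CTL, 22 (2.64%) were higher and 18 (2.16%) lower, against 1.05% and 0.937%. In each of these comparisons the share of the unannotated loci exceeded that of all rows in both directions.

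In the comparisons that share the SP birds, the medians over the 834 loci tilted the same way as the counts. In SPM vs SP the median log2 fold change was 0.16, with 564 loci (67.6%) above 0. Over all rows tested the median was 0.014, with 51.9% above 0. The unannotated loci had a median of 0.11 in SPH vs SP, with 531 (63.7%) above 0. In SP vs CTL they had one of -0.09, with 324 (38.8%) above 0. Over all rows these medians were 0.0075 and -0.0046, with 51.6% and 48.7% above 0. Of Ensembl lncRNA rows, 61.2% were above 0 in SPM vs SP, 59.4% in SPH vs SP and 39.5% in SP vs CTL. In SPM vs SPH, SPH vs CTL and SPM vs CTL the medians of the unannotated loci were 0.03, 0.01 and 0.07. By level, the median in SPM vs SP was 0.16 in loci of 0.1 to 1 FPKM, 0.17 in loci of 1 to 10 FPKM and 0.13 in loci over 10 FPKM. Over all rows in the same ranges it was 0.06, 0.03 and -0.0046. Ensembl rows without a symbol had a median of 0.05, and Ensembl rows of the lncRNA class had one of 0.10. In females alone (4 SPM and 3 SP birds) the median of the unannotated loci was 0.15, and in males alone (2 and 3 birds) it was 0.16.

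In SPH vs SP the median of the unannotated loci was 0.15 in females alone and 0.07 in males alone (3 birds in each group and sex), and Ensembl lncRNA rows had 0.07. In SP vs CTL, where all males were SP birds, it was -0.06 with sex as a covariate, -0.07 in females alone and -0.05 without CTL replicate 3, and Ensembl lncRNA rows had -0.09.

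Bird by bird, the median of the tested unannotated loci, each centred on its own mean over the 24 birds, ran from -0.0068 to 0.21 in SPM, from -0.04 to 0.12 in SPH, from -0.17 to 0.00038 in SP and from -0.07 to 0.19 in CTL. Each other group had birds within the range of SP. The 3 SP males ran from -0.17 to -0.06 and the 3 SP females from -0.07 to 0.00038, and the CTL birds, all female, had a median of -0.0084. The medians were 0.03 in SPM, 0.03 in SPH and -0.06 in SP. The same measure of Ensembl lncRNA rows ran from -0.08 to 0.19 in SPM and from -0.08 to 0.15 in SPH. It ran from -0.11 to 0.02 in SP and from -0.11 to 0.20 in CTL. In the same birds T cell markers summed to 136 to 247 FPKM in SPM, 161 to 257 FPKM in SPH, 235 to 327 FPKM in SP and 149 to 307 FPKM in CTL, over 5 of 5 genes. Smooth muscle markers summed to 1180 to 2307 FPKM in SPM, 1358 to 1757 FPKM in SPH, 898 to 1520 FPKM in SP and 1459 to 2038 FPKM in CTL, over 5 of 5 genes. B and plasma cell markers summed to 43.6 to 140 FPKM in SPM, 36.9 to 287 FPKM in SPH, 51.5 to 570 FPKM in SP and 105 to 301 FPKM in CTL, over 5 of 5 genes. Red blood cell markers summed to 105 to 563 FPKM in SPM, 120 to 340 FPKM in SPH, 94.7 to 311 FPKM in SP and 46.5 to 447 FPKM in CTL, over 3 of 4 genes. The medians of these last sums were 99.7 and 352 FPKM in SPM, 58.9 and 228 FPKM in SPH, 150 and 176 FPKM in SP, and 190 and 177 FPKM in CTL. No gene of these 4 lists was at 0 in every bird. Goblet cell markers, over 3 of 4 genes, had median sums of 2612 FPKM in SPM, 4043 FPKM in SPH, 3232 FPKM in SP and 1426 FPKM in CTL. Enterocyte markers, over 4 of 5 genes, had median sums of 9213, 7984, 8271 and 7954 FPKM in the same order. For both of these lists the ranges of the groups overlapped. The part of these cells in the tilt was not tested. In such bulk tissue, fewer cells of a type and less RNA per cell cannot be told apart.

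The loci nearest to a call were in SPM vs SP. These and the loci of the comparisons below were picked for a small limma p in the same birds. Their exact permutation p values and counts of birds that did not overlap are not adjusted for that choice and stand as descriptions. The share of all rows that separate fully is not given here. chr9:23521202-23525313 (plus strand, 221 bases from P2RY1 on the other strand) had a lowest, median and highest FPKM of 3.79, 4.13 and 4.55 in SPM, against 1.71, 2.75 and 3.26 in SP. All 6 SPM birds lay above all 6 SP birds. The log2 fold change was 0.67 ± 0.13 (SE), with a limma adjusted p (Benjamini-Hochberg) of 0.0940 and an exact permutation p of 0.00216, the smallest that 6 against 6 can give.

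KZ626839.1:676903 (plus strand), the seventh most abundant locus, had 146, 204 and 257 FPKM in SPM, against 67.5, 118 and 183 FPKM in SP. There 5 of 6 SPM birds lay above every SP bird. The log2 fold change was 0.78 ± 0.19 (SE), with a limma adjusted p (Benjamini-Hochberg) of 0.105 and an exact permutation p of 0.00866. On the lower side, chr2:118233570-118247990 had a median of 0.269 FPKM in SPM, against 1.12 FPKM in SP, and 4 SPM birds lay below every SP bird.

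chr22:571695, the locus that followed RASSF2, was among the loci of smallest p in both SPM vs SP and SPH vs SP, which share the SP birds. It had 0.853, 1.01 and 2.25 FPKM in SPM, 0.752, 1.05 and 1.85 FPKM in SPH, and 1.55, 3.13 and 8.88 FPKM in SP. In each supplemented group 5 of 6 birds lay below every SP bird. The log2 fold changes were -1.44 ± 0.43 and -1.48 ± 0.43 (SE), with limma adjusted p values (Benjamini-Hochberg) of 0.138 and 0.379. A CTL bird reached 7.95 FPKM, within the range of SP.

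In SPH vs SP, chr13:2073834-2076473 (minus strand, 15 bases from PURA on the other strand) had 6.60, 7.58 and 8.76 FPKM in SPH, against 5.17, 6.25 and 6.48 FPKM in SP. The groups did not overlap, and the exact permutation p was 0.00216, but the log2 fold change of 0.33 lay below the fold limit and the limma adjusted p (Benjamini-Hochberg) was 0.379. chr3:64903409-64904271 had medians of 4.74 FPKM in SPH and 2.69 FPKM in SP, and 4 SPH birds lay above every SP bird. chr1:16743946-16744361 had medians of 0.0712 FPKM in SPH and 0.439 FPKM in SP, levels of few reads.

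In SP vs CTL, chr33:6750303-6757624 (minus strand, length 252 bases) had 3.56, 4.05 and 5.37 FPKM in SP, against 1.94, 2.74 and 3.80 FPKM in CTL, and 5 of 6 SP birds lay above every CTL bird. At this short length these are levels of few reads, 14 to 29 per SP bird and 9 to 15 per CTL bird. The log2 fold change was 0.63 ± 0.19 (SE), with a limma adjusted p (Benjamini-Hochberg) of 0.767 and an exact permutation p of 0.00433. The same locus was also of smallest p in SPH vs CTL and SPM vs CTL, with log2 fold changes of 0.63 and 0.80, and these 3 comparisons share the CTL birds. Its medians were 4.84 FPKM in SPM and 4.47 FPKM in SPH. CTL had the lowest median of the 4 groups, with some overlap, and CTL birds were all female and reared apart.

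On the other side of SP vs CTL, chr12:1834317-1835801 had medians of 0.934 FPKM in SP and 1.85 FPKM in CTL. chr4:9622116-9627168 had medians of 0.442 FPKM in SP and 1.05 FPKM in CTL, with 5 of 6 SP birds below every CTL bird. chr27:3225963-3226688 had a median of 0.879 FPKM in SP and of 0 in CTL, where most birds had no read. limma's adjusted p (Benjamini-Hochberg) was 0.767 for each.

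In SPM vs SPH, the comparison of both supplements, chr24:234416-239412 had medians of 1.15 FPKM in SPM and 0.420 FPKM in SPH, and 5 of 6 SPM birds lay above every SPH bird. KZ626833.1:10304-15945 had 8.56, 10.6 and 16.3 FPKM in SPM, against 5.76, 8.03 and 10.2 FPKM in SPH and 5.39, 6.40 and 9.48 FPKM in CTL. chr30:1396006-1397665 and chr25:2433717-2436717 had log2 fold changes of -0.82 ± 0.29 and -1.31 ± 0.49 (SE). The limma adjusted p (Benjamini-Hochberg) was 0.996 for these 4 loci, so none of the differences held up over the rows tested.

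**Figure D5:**
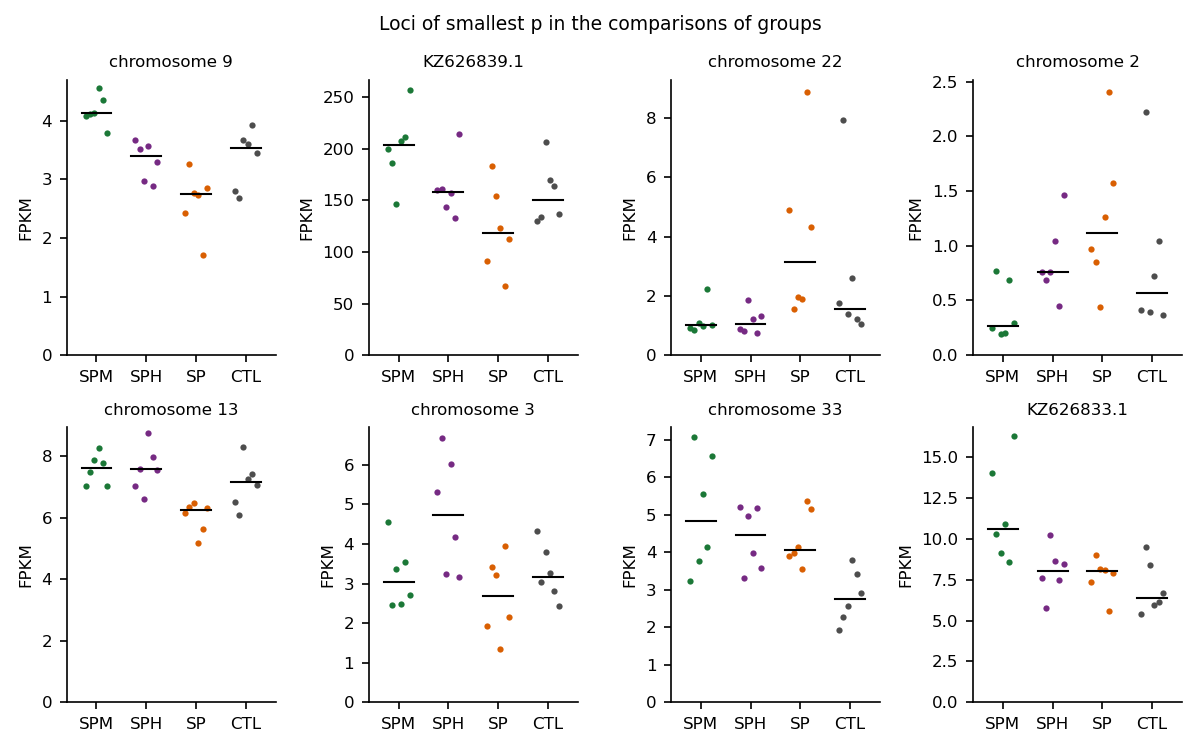
FPKM (y axis, linear from 0) of 8 loci of smallest p in the group comparisons, in each bird (points) by group (x axis), with the group median as a line. The 6 SPM birds lie above the 6 SP birds at chr9:23521202, and the 6 SPH birds above the 6 SP birds at chr13:2073834. The panels stand in the order chr9:23521202, KZ626839.1:676903, chr22:571695, chr2:118233570, chr13:2073834, chr3:64903409, chr33:6750303 and KZ626833.1:10304, and limma called none of these loci.

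Some of the smallest p values against CTL came from loci on Z or W. In SPH vs CTL, the Z locus chrZ:67318811 had 5.45, 11 and 18.3 FPKM in SPH, against 4.52, 5.46 and 6.95 FPKM in CTL. Of the SPH birds 3 were male and of the CTL birds none, so sex and group cannot be fully told apart there. In SPM vs CTL, the W locus chrW:2269244-2269859 had a median of 0 in SPM, with 2 males, and of 0.260 FPKM in CTL. Most SPM females had no read there either. These are levels of few reads, 39 over all females, 10 of which had any. Apart from the loci on Z and W, KZ626837.1:1680827-1681398 and chr12:14265159-14274041 were of smallest p on the lower side of SPH vs CTL. Their log2 fold changes were -1.65 and -0.69. chr15:37374-57604 had 1.26, 5.65 and 18.4 FPKM in SPM, against 10.6, 14.9 and 23.7 FPKM in CTL, with 5 of 6 SPM birds below every CTL bird and a limma adjusted p (Benjamini-Hochberg) of 0.931.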

How the data were processed

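Per the study's methods, the authors made NEBNext libraries from ileum RNA, sequenced them on a NovaSeq instrument, removed adapter reads, mapped the rest and tested with DESeq2. The labels instead name a TruSeq kit, retinas, Bowtie 0.12.2 and the builds mm8, a mouse build, and GRCg6a. Of the counting program, of how the unannotated loci were assembled, of the annotation release and of strandedness nothing is stated in the sources used here. The values are FPKM as deposited, with the authors' gene lengths. Each FPKM times length was a whole multiple of 1 step per bird (largest deviation 7.25e-05 reads, tolerance 0.001), which gave reads.

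Rows with a mean FPKM of at least 0.1 were tested on log2(FPKM + 0.1) with limma 3.58.1 (R 4.3.3, intensity trend, 1 fit of 24 birds), and p values were adjusted by Benjamini-Hochberg over all rows tested. Fold changes understate the change of low rows. Single loci, picked for a small limma p in the same birds, were also given two-sided exact permutation p values, not adjusted for that choice. The fit was checked on simulated data. Values were summarised with pandas 2.3.3. p values measure the spread between birds of a group, 1 bird from each of 6 cages.

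The loci named were the 10 most abundant, the longest and shortest, the 5 of largest spread at a mean of at least 1 FPKM, for each contrast the 2 of smallest p in each direction, for sex the 5 of smallest p in each direction outside W, and the 5 most abundant on W. Neighbours were the nearest rows with a symbol. The members, lists and this rule were chosen with earlier results of these data known. Counts of 0 were taken to allow 3 reads, which covers counting error only. Alternatives were pseudocounts of 1 and 0.01, a mean of at least 1 FPKM, no filter, the 2 groups alone, a replicate block, sex as a covariate, females only, equal totals, quantile normalization, limma-voom, an unadjusted p and leaving out each bird. No sequence was printed, as no genome of this build was at hand.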

Additional observations from a re-analysis of the deposited data

Results flagged for a closer look

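Among the 10 most abundant loci and the share of reads on unannotated loci, each in the 4 groups, 44 sets of 6 birds were examined for a bird far from the others, and 2 were found. Chance alone flags about 1 in 20 such sets. chr24:6126751 had 46.0 FPKM in SPM replicate 6, against 179 to 239 FPKM in the other SPM birds. chr18:3694176 had 119 FPKM in SPH replicate 4, against 229 to 286 FPKM in the other SPH birds. In both cases the bird was the lowest of its group, and neither locus was called in a comparison.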

How the results depend on the processing

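The count of 0 unannotated loci called held under every alternative in 5 of the 6 group comparisons, the unadjusted p apart. In SPM vs SP, 4 of 834 (0.480%, against 0.7% of all rows) were called in female birds only and 0 to 5 on leaving out 1 bird, the 5 (0.60%, against 0.839% of all rows) without SP replicate 2. KZ626839.1:676903 and chr1:80706830 were called in both. At an unadjusted p the counts were 64 in SPM vs SP, 51 in SPH vs SP, 37 in SP vs CTL, 32 in SPM vs SPH, 42 in SPH vs CTL and 40 in SPM vs CTL. The median of the unannotated loci in SPM vs SP lay between 0.09 and 0.18 over the alternatives, in SPH vs SP between 0.07 and 0.15 and in SP vs CTL between -0.11 and -0.05, the smallest without CTL replicate 3. Between female and male birds, 8 loci were called, 13 without group in the fit, 5 without the CTL birds, and 4 (without SPH replicate 1) to 13 (without SPH replicate 3) on leaving out 1 bird; 5 were called without SP replicate 3 and 5 without SP replicate 5. chrZ:11301728 was called in 36 of 36 settings and chrZ:81847975 in 12 of 35. No named locus changed direction. The cause of these moves was not tested. Replicate numbers did not pair the birds, since same-numbered birds had correlations of -0.20 to 0.24, and with the replicate block 3 loci were called between the sexes, 2 of them among the 8, and 0 in each group comparison. Of the loci tested, 325 lay under 1 FPKM, and the effect of their low read numbers was not measured.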
